A study of Mus musculus with 8 samples.

Results

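The set described here is 65 mouse genes that each carried at least 1 Foxp3 binding site listed as cTreg-specific and at least 1 listed as eTreg-specific. A site was given to the protein-coding gene in which its centre lay, counting 5 kb on each side as part of the gene; failing that, the closest gene with an end no more than 100 kb away was taken. The 65 genes were among 2760 genes with any site. They held 414 of the 5521 listed sites, of which 207 were common to both classes of cell, 111 were cTreg-specific and 96 were eTreg-specific. These were 5.38% of all common, 15.3% of all cTreg-specific and 10.1% of all eTreg-specific sites. The rule asks for a site of each specific class but for no common site, so the larger shares of the specific classes are no finding. The labels do not spell out cTreg and eTreg, which in this field usually stand for central (resting) and effector regulatory T cells.

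The sites were measured by CUT&Tag, which uses an antibody to bring a transposase to its target, where it cuts and tags the nearby DNA for sequencing. There were 8 libraries of freshly sorted Treg cells (CD4+hCD2+GFP-) from C57BL6/J mice (lymph nodes and spleen), 2 in each of 4 groups, and the ages of the mice are not given in the labels. The WT groups had the genotype Foxp3WT-IRES-hCD2/Foxp3-IRES-GFP and the R397W groups Foxp3R397W-IRES-hCD2/Foxp3-IRES-GFP, each profiled with an in-house rabbit polyclonal antibody against Foxp3 or with normal rabbit IgG as background. All 4 groups carried an hCD2-marked and a GFP-marked Foxp3 allele and were sorted for the hCD2-marked one, which in the R397W groups encodes the substituted protein, so the other allele's cells were sorted away in every group. The labels do not say that libraries 1 and 2 came from separate mice, so each p-value reflects the spread among these samples alone, and that spread may be technical. The classes themselves were defined by the authors, and the libraries are of total Treg cells and not of separate cTreg and eTreg cells.

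Foxp3 is the forkhead transcription factor that defines Treg cells and binds mostly at enhancers and promoters that are already open in T cells. Resting Treg cells keep genes of naive T cells and of lymph node residence active, whereas effector Treg cells turn on genes of activation, migration and suppression, so a factor can occupy different enhancers of the same gene in these states. An enhancer can act on a promoter at a distance, and several enhancers commonly serve 1 gene, so the nearest gene is a label for a site and not a shown target.

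Of the 111 cTreg-specific sites, 3 overlapped a listed promoter over at least 200 of the 250 bases before a transcription start. These stretches are shown because the RefSeq promoter table (GRCm38.p6, the same assembly as mm10) holds no other class-specific member site over so many bases, and each is cut to the part inside the site. All 3 are cTreg-specific, and the one eTreg-specific site at a listed promoter, that of Mbnl1, overlapped it by 106 bases only and is not shown. Capitals mark matches to TGTTTA (the core bound by forkhead factors), TGTGGT (RUNX) or CTTTGA (TCF and LEF), on either strand, so that TCAAAG is CTTTGA read on the other strand. The motifs TGANTCA (AP-1) and CCGGAA (ETS) were also searched on both strands and had no match in these 3 stretches, and no searched motif overlapped another.
Foxp1, start of a shorter transcript within the gene (chr6:99266516-99266741, minus strand): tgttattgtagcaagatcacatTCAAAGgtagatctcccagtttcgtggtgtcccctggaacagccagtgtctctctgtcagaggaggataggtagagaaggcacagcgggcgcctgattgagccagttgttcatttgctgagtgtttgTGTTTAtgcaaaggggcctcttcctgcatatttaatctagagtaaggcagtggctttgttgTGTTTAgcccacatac
Pik3r5, first promoter (chr11:68431875-68432124, plus strand): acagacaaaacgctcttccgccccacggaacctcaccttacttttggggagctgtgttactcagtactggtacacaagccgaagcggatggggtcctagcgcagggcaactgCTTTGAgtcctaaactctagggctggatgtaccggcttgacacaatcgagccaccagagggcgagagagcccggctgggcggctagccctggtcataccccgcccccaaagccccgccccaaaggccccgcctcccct
Gm13982, a transcript beside the cTreg-specific sites of Rasgrp1 (chr2:117417698-117417898, minus strand): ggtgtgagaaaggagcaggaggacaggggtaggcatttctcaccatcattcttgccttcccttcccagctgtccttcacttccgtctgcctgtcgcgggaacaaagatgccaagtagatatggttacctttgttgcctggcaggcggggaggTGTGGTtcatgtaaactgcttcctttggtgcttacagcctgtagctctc

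The Foxp1 stretch held 2 matches to TGTTTA and 1 to CTTTGA, the Pik3r5 stretch 1 to CTTTGA, and the Gm13982 stretch 1 to TGTGGT. Such short words are frequent. Over the 250 bases before the start of all 21263 protein-coding promoters in the table, TGTTTA was present in 10.5%, TGTGGT in 12.4%, CTTTGA in 12.7%, CCGGAA in 15.0% and TGANTCA in 6.13%. Among the 69 promoters listed for the member genes the shares were 11.6%, 8.70%, 17.4%, 8.70% and 7.25%. A match describes the letters of the stretch and does not show a bound site.

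Foxp1 held the most class-specific sites of the set, 12 cTreg-specific and 2 eTreg-specific beside 7 common ones. It encodes a forkhead factor that maintains naive T cells in quiescence. The gene spans chr6:98925342-99522746 on the minus strand, and its 21 sites all lay in the gene body. Read from the 5' end, 11 cTreg-specific sites came before the first eTreg-specific site, which was followed by the last cTreg-specific and the last eTreg-specific site. Its closest cTreg-specific and eTreg-specific sites were 26.9 kb apart and its most distant ones 448 kb apart. The map of the 12 genes with the most class-specific sites shows the cTreg-specific sites of Foxp1 filling the 5' part of the gene and its eTreg-specific sites near the 3' end.

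**Figure D1:**
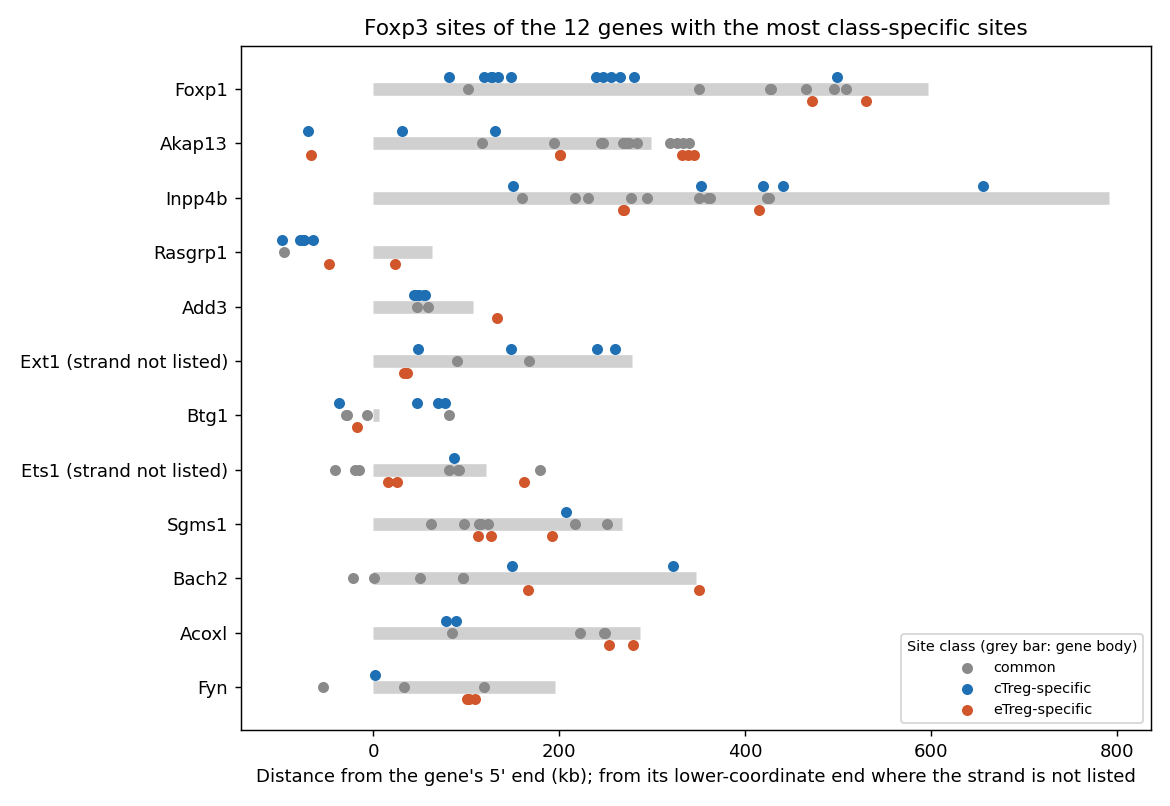
Positions of the Foxp3 sites of the 12 member genes with the most class-specific sites, in kb from the gene's 5' end (from the lower-coordinate end where no strand is listed). Grey bars are gene bodies and points are sites, coloured by class; in Foxp1 11 of the 12 cTreg-specific sites lie 5' of both eTreg-specific sites, whereas in Bach2 the classes alternate.

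Akap13, which encodes an anchoring protein for protein kinase A, had the most sites of all members, 13 common, 3 cTreg-specific and 6 eTreg-specific. Here the balance was the other way round from Foxp1. Its 3 cTreg-specific sites lay upstream of the gene or in its 5' part, and 3 of its 6 eTreg-specific sites lay 33011 to 46132 bp past its 3' end. Of the other eTreg-specific sites, 2 lay in the gene body. The last lay upstream, 67239 bp from the gene and 3390 bp from the upstream cTreg-specific site, so the classes formed 4 blocks. Inpp4b, a phosphatase that removes a phosphate from PI(3,4)P2 and so acts in PI3K signalling, had 5 cTreg-specific and 3 eTreg-specific sites among 10 common ones, and its classes changed over more often along the gene than in any other member, in 5 blocks.

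Rasgrp1, the exchange factor that activates Ras after T cell receptor signalling, had 5 cTreg-specific sites and 2 eTreg-specific sites. All 5 cTreg-specific sites lay outside the gene on its 5' side, 65550 to 98362 bp away, and the next other protein-coding gene, Fam98b, was further off. The eTreg-specific sites lay closer, 1 at 47510 bp and 1 inside the gene. Its cTreg-specific site at 98362 bp was also the member site farthest from its gene, just inside the limit of 100 kb. Past that limit, the nearest class-specific site that would have added a gene lay 103599 bp from Map3k7, and 14 class-specific sites in all would have added a gene at some longer distance.

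Naive and resting T cell genes were represented by 3 members, Foxp1, Bach2 and Il6ra, of 21 genes of that list with a site and 16 with a class-specific site. Bach2, a repressor that restrains effector differentiation, had 2 cTreg-specific and 2 eTreg-specific sites, and they alternated along the gene. Its closest pair was 17.2 kb apart, and its last eTreg-specific site lay 2341 bp past the gene. Il6ra, the ligand-binding chain of the interleukin-6 receptor, had a cTreg-specific site 5021 bp outside the gene and an eTreg-specific site 5.72 kb away from it inside the gene. Il6st, the signalling chain of the same receptor (gp130), was also a member although on none of the lists, with 2 cTreg-specific sites and 1 eTreg-specific site.

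No effector Treg gene was a member. Of 41 genes on that list, 25 had a site and 21 had a class-specific site, but in none of them were both classes present. Members were rare among all genes: 65 held both classes, beside 414 with cTreg-specific sites only and 587 with eTreg-specific sites only. Counts on lists this small do not set 1 list apart from another, and differences between lists were not tested. The 11 core Treg genes with a site contributed Nrp1, a co-receptor for semaphorins found on thymus-derived Treg cells, with a cTreg-specific site inside the gene and an eTreg-specific site 44450 bp past it. AP-1, IRF, NFAT, NR4A, EGR and TOX factors (9 genes with a site, 3 with a class-specific one) and cytokines, their receptors and SOCS proteins (18 and 7) had no member. B cell and myeloid cell markers had no gene with a site, of 8 genes each, CD8 T and NK cell markers had 1 of 8, and housekeeping genes 2 of 8, none of them a member.

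Signalling downstream of the T cell receptor was represented by 3 members of the 34 listed genes with a site, of which 17 had a class-specific one. These were Fyn, a Src-family kinase, Rasa3, a GTPase-activating protein for Ras, and Rasgrp1. Fyn had 1 cTreg-specific site at its 5' end and 3 eTreg-specific sites in its body, 98.7 to 108 kb away. From the NF-kB and TNF receptor list, 2 genes were members, Malt1, a protease of NF-kB signalling, and Tnfaip3, which encodes the inhibitor A20. From the PI3K and metabolism list they were Inpp4b and Pik3r5, the regulatory subunit of PI3K gamma.

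From the lists of regulators, the members beside Foxp1 and Bach2 were Ets1 and Ikzf3 (of 16 RUNX, ETS, STAT and Ikaros genes with a site). Hivep2 and the splicing regulator Mbnl1 (of 17 in a list of other regulators) and the histone deacetylase Hdac4 (of 19 chromatin genes) were the others. Members on none of the lists, such as Foxn3 and Gtf2i, also include transcription factor genes. Ets1 had 3 eTreg-specific sites and 1 cTreg-specific site beside 7 common ones, and Ikzf3, which encodes Aiolos, had 2 of each class. Arhgap15 and Tiam1, which switch Rac off and on respectively, were the members from the migration and adhesion list. Rnf19a was the only member among 15 phosphatase and ubiquitin genes with a site. In all, 19 of the 65 members were on a list.

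The member genes were long and rich in sites. Their median length was 147 kb and their median number of sites 5, with the middle 50% of genes between 4 and 8 and a maximum of 22 in Akap13. The 414 genes with cTreg-specific but no eTreg-specific sites had a median length of 61.6 kb and 2 sites, and the 587 genes with eTreg-specific but no cTreg-specific ones 56.0 kb and 1 site. Because a gene with more sites, or a longer one, has more chances to hold both classes, these values follow in part from the rule, and their part in the selection was not tested. Among the 177 genes with exactly 2 class-specific sites, 31 had 1 of each (17.5%), 68 had only cTreg-specific and 78 only eTreg-specific ones. Both classes were present in 18 of 55 genes with 3 class-specific sites (32.7%) and in 16 of 43 with 4 or more (37.2%).

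The closest cTreg-specific and eTreg-specific sites of a gene were a median of 30.9 kb apart between centres, with the middle 50% of genes between 16.8 and 78.0 kb. In no gene were they less than 1 kb apart, in 5 genes they were under 5 kb, in 11 under 10 kb, and in 10 over 100 kb. At least 1 common site of the same gene lay between the closest pair in 29 genes, and none in 36. Sites given to other genes were not counted. The ranked plot of these distances shows a continuous range from 1.77 kb in Ankrd11 to 250 kb in Cfap54.

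**Figure D2:**
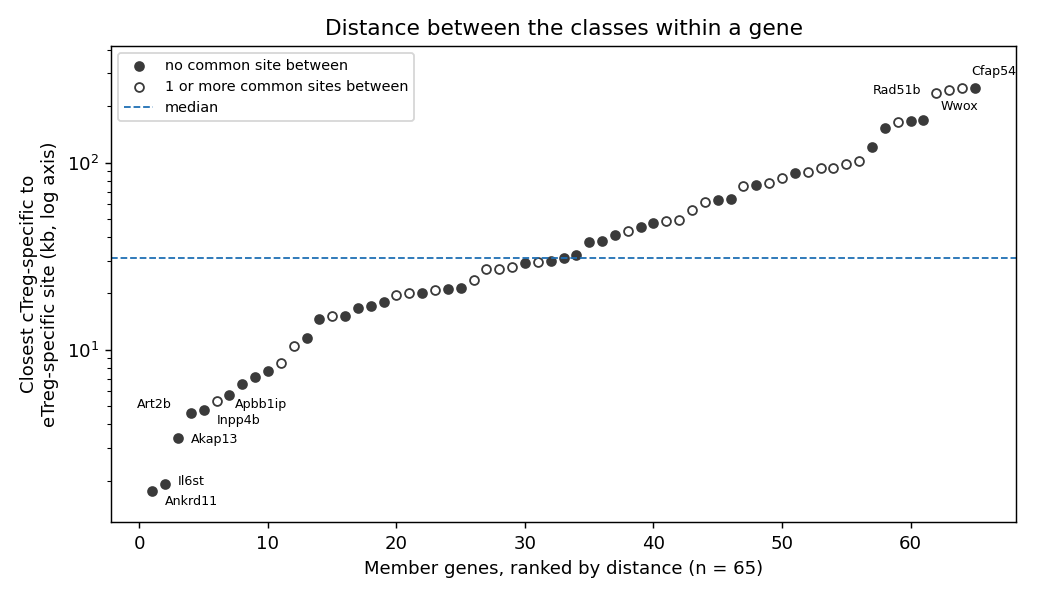
Distance between the centres of the closest cTreg-specific and eTreg-specific sites in each of the 65 genes, in kb on a log axis, ranked from the shortest. Filled points have no common site of the same gene between the pair and open points have 1 or more. The dashed line is the median of 30.9 kb, and only 5 genes lie under 5 kb.

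Ankrd11, a nuclear cofactor gene, had the closest pair, 1771 bp apart inside the gene. At its cTreg-specific site (chr8:123025948-123026348) the normalised read count was 71.6 and 0 in the WT Foxp3 libraries and 23.6 and 58.1 in the R397W ones. At its eTreg-specific site (chr8:123027719-123028119) the WT libraries had 21.7 and 7.29 and the R397W libraries 12.6 and 0. Both sites thus had an empty library among the 4, and the groups overlapped at each.

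Il6st was next, with 1928 bp between the pair. The cTreg-specific site (chr13:112491700-112492100) had 16.8 and 0 in WT Foxp3 and 15.2 and 0 in R397W Foxp3. The eTreg-specific site (chr13:112489772-112490172) had 7.80 and 0 in WT Foxp3, against 25.1 and 0 for R397W. Library 2 was empty at both sites in both genotypes, and so were all 4 IgG libraries. Akap13 followed at 3390 bp, Art2b, an ADP-ribosyltransferase of T cells, at 4596 bp, Inpp4b at 4781 bp and Apbb1ip, the adaptor RIAM that links Rap1 to integrins, at 5355 bp. The longest distances between any cTreg-specific and any eTreg-specific site of a gene were in Rabgap1l (478 kb), Foxp1 and Wwox (419 kb).

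The order of the classes along the gene differed between genes. In the 34 genes with 3 or more class-specific sites, the nearest class-specific neighbour was of the same class for 41 of 80 cTreg-specific sites (51.2%), which made up 55.2% of those sites. The same held for 36 of 65 eTreg-specific sites (55.4%), which made up 44.8%. These shares of sites are not the values that a random order would give. The only site of a class in a gene cannot have a neighbour of its class, and an expected value was not computed. In 19 of the 34 genes the classes formed 2 separate blocks and in 15 they were interleaved. Among 30 genes with a listed strand and both classes in the body, cTreg-specific sites lay more 5' in 14 and eTreg-specific sites in 16, at median positions of 47.1% and 44.8% of the gene's length. Among the same 34 genes, 15 had more cTreg-specific sites, 15 more eTreg-specific ones and 4 equal numbers. In the other 31 genes the rule itself fixes 1 site of each class.

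Most member sites lay in gene bodies, in which the gene table does not tell exons from introns. The share was 73.9% of common, 73.0% of cTreg-specific and 71.9% of eTreg-specific member sites, against 66.5%, 56.8% and 56.5% of all sites of these classes. Both classes were present inside the body in 41 of the 65 genes, and in 8 every class-specific site lay outside it. Member sites were mostly far from listed transcription starts. Common member sites lay a median of 53.1 kb from a listed start of the gene, cTreg-specific ones 50.4 kb and eTreg-specific ones 58.3 kb. Over all sites with a gene these medians were 18.9, 33.5 and 31.0 kb. Within 1 kb of a start were 7 of 174, 4 of 91 and 1 of 73 sites respectively, and among all sites with a gene the shares were 18.1%, 2.97% and 3.12%. The members were chosen by where sites lay relative to genes, and they were long. These shares and distances can thus follow in part from the rule, and that part was not tested.

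Common member sites at promoters were those of Fasl, the death ligand of T cells, Itpkb, an inositol trisphosphate kinase needed for T cell development, Arhgap15, Apbb1ip, Auh and Gne. A common site given to Ets1 (chr9:32594241-32594641) lay at the promoter of the transcript Gm31871. Some sites were also near a second gene. The cTreg-specific site given to Cx3cr1, a chemokine receptor, lay 11829 bp from that gene and 12008 bp from Ccr8, another chemokine receptor known on effector Treg cells. A cTreg-specific site given to Atp6v1g3 lay 25491 bp from it and 72491 bp from Ptprc, which encodes CD45. The eTreg-specific site past Nrp1 lay 135728 bp from Itgb1, an integrin chain. For such sites the distance rule chose between neighbouring genes.

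Reads at member sites, recovered as whole reads from the deposited values, were 24699 and 25188 in the WT Foxp3 libraries and 8831 and 16927 in the R397W Foxp3 ones. With IgG they were 18325 and 15815 for WT and 7974 and 14723 for R397W. Library 2 of each group left more sites without reads than library 1, 42.0% against 0.725% in WT Foxp3 and 57.2% against 11.1% in R397W Foxp3, and 72.7% against 25.6% and 64.7% against 18.8% in the IgG libraries. The Foxp3 libraries with more empty sites were not those with fewer reads, and the cause of the empty sites was not tested. Only 122 of the 414 member sites (29.5%) had reads in all 4 Foxp3 libraries, against 33.5% of all sites. How the authors treated duplicate reads is not stated in the labels.

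The first comparison asks how far the Foxp3 antibody exceeded IgG at the member sites. The mean normalised read count of common member sites was 2.35 and 1.44 times that of IgG of the same replicate number in WT, and 1.23 and 0.972 times in R397W. For eTreg-specific member sites the ratios were 2.23 and 1.56 in WT and 0.900 and 1.35 in R397W. For cTreg-specific ones the WT ratios were 1.30 and 1.15 and the R397W ratios 0.953 and 1.53. The WT ratios were all above 1 and 3 of the 6 R397W ratios under 1, but the numbers are not shown to pair the libraries. Taken without pairing, WT Foxp3 overlapped WT IgG in every class: WT Foxp3 library 2 was below WT IgG library 1 at common (32.5 against 34.0), cTreg-specific (29.5 against 35.4) and eTreg-specific member sites (17.5 against 20.3). Over all sites of a class the WT ratios were 1.56 and 1.21 (common), 1.26 and 1.18 (cTreg-specific) and 1.70 and 1.44 (eTreg-specific). No test was made of these ratios, and the 3 files were scaled separately, so levels of different classes are not compared.

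**Figure D3:**
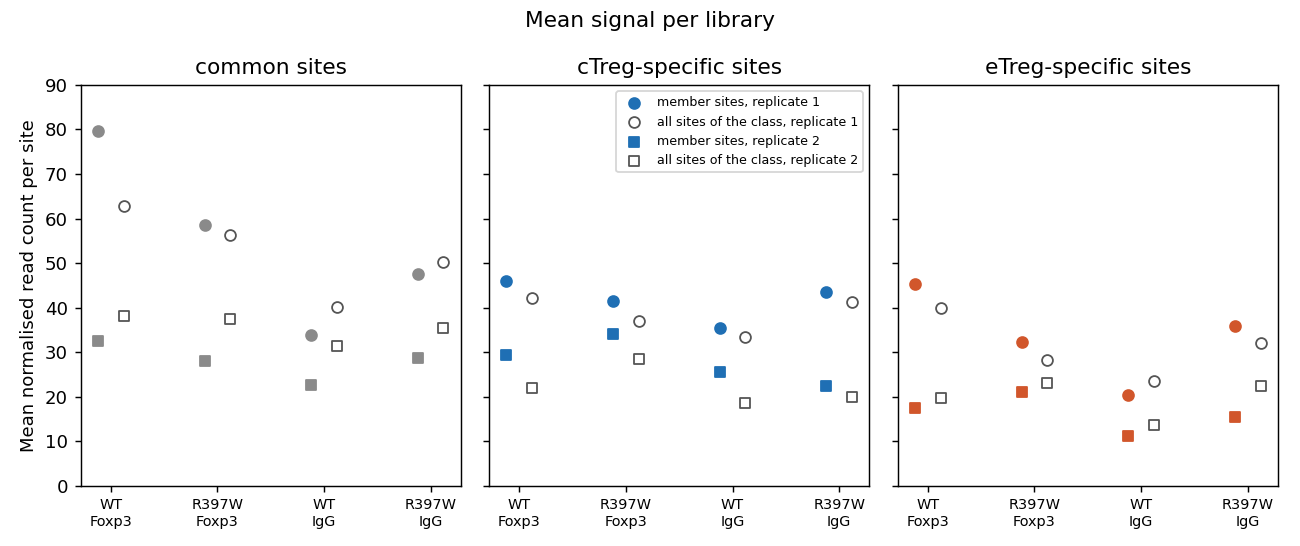
Mean normalised read count per site in each of the 8 libraries, by site class; filled points are the member sites, open points all sites of the class, circles replicate 1 and squares replicate 2. The 2 WT Foxp3 libraries lie above the WT IgG library of the same number in every class for the member sites, and replicate 1 lies above replicate 2 throughout.

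Site by site, WT Foxp3 exceeded WT IgG in both libraries without overlap at 93 of 414 member sites (22.5%), where 19.5% of all sites did. It lay below at 10, with a background of 4.84%. In limma's moderated test on log2(normalised read count + 1), no member site passed an adjusted p of 0.05 higher or lower, where 0.0725% of all sites (4 of 5521) passed higher and 0% lower. At an unadjusted p under 0.05, 13 member sites were higher (background 2.41%) and 1 lower (0.163%). The lowest adjusted p of a member site in limma was 0.991, and edgeR and DESeq2 called 0 member sites as well. Without WT Foxp3 library 2, 13 member sites were called higher (3.14%, against 3.41% of all sites). Without WT Foxp3 library 1 there were 4 (0.966%, against 0.616%) and without WT IgG library 1 there was 1 (0.242%, against 0.525%). The median log2 difference was 1.71 for member sites and 1.27 for all sites, the fold on this scale being drawn in by the added 1.

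The WT sites with the strongest Foxp3 signal were named in each class by their mean. The common site of Pik3r5 (chr11:68451283-68451683, in the gene body) had 488 and 363 in WT Foxp3, 362 and 349 in R397W Foxp3. With IgG it had 248 and 249 in WT cells, and in R397W cells 154 and 377. Both WT Foxp3 libraries were above both WT IgG libraries, whereas R397W Foxp3 lay within the range of its IgG. The common site of Hivep2 (chr10:13993478-13993878) had 412 and 209 in WT Foxp3 and 185 and 92.1 in WT IgG, and in R397W 218 and 29.6 with Foxp3 against 226 and 223 with IgG.

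Among the cTreg-specific member sites, those of Rasa3 and Susd1 had the highest WT Foxp3 means. At the Rasa3 site (chr8:13600094-13600494) the WT Foxp3 libraries had 209 and 302 and the WT IgG libraries 282 and 280, and R397W had 158 and 332 with Foxp3 and 110 and 539 with IgG. At the site of Susd1 (chr4:59331679-59332079) WT Foxp3 had 165 and 342 and WT IgG 218 and 124, and R397W had 128 and 100 with Foxp3 and 223 and 212 with IgG. WT Foxp3 overlapped WT IgG at both sites. At the Susd1 site both R397W Foxp3 libraries were below both WT Foxp3 and both R397W IgG libraries, and the log2 difference from WT was -1.06 (limma, adjusted p = 1).

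The eTreg-specific member sites with the highest WT Foxp3 means were in Itpkb and Hivep2. At the site of Itpkb (chr1:180388608-180389008) WT Foxp3 had 162 and 175 and WT IgG 13.2 and 13.1, a log2 difference of 3.59 (limma, unadjusted p = 0.0477, adjusted p = 0.991). The site was named for its high WT Foxp3 values, so the unadjusted p is not that of a site chosen beforehand. In R397W the Itpkb site had 170 and 82.0 with Foxp3 and 164 and 0.952 with IgG, so that only the second IgG library was low. The eTreg-specific site of Hivep2 (chr10:14086185-14086585) had 137 and 131 in WT Foxp3, with IgG values of 105 and 0. In R397W cells it had 54.5 and 61.7 with Foxp3 and 198 and 46.6 with IgG.

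In R397W cells the antibody exceeded IgG without overlap at 43 member sites (10.4% of the 414, with a background of 10.4%) and lay below it at 35 (background 7.84%). No member site passed limma's adjusted threshold, as was so for 0% of all sites, and 3 were higher and 3 lower at an unadjusted p under 0.05, with backgrounds of 0.906% and 0.561%. The count of calls was also 0 in edgeR and in DESeq2. The median log2 difference was 0.23 for member sites and 0.05 for all.

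The second comparison asks whether R397W Foxp3 differed from WT Foxp3 at these sites. The fitted difference was below 0 at 274 of 414 member sites (66.2%), where 60.4% of all sites were lower, and above 0 at 140 (33.8%), where 38.5% were. The median log2 difference of R397W minus WT was -0.60 over member sites and -0.39 over all sites. It was -0.57 for common, -0.49 for cTreg-specific and -0.95 for eTreg-specific member sites, against -0.33, -0.35 and -0.79 over all sites of each class. This median rested on single libraries: it was 0.49 without WT Foxp3 library 1, -2.30 without WT Foxp3 library 2, -2.22 without R397W Foxp3 library 1 and 0.45 without R397W Foxp3 library 2.

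No member site passed an adjusted p of 0.05 in limma in either direction, as was so for all 5521 sites (0%). At an unadjusted p under 0.05, 2 member sites were lower (background 0.272%) and 0 higher (background 0.0543%). Counts of calls were also 0 with edgeR and DESeq2 on the recovered reads. At an unadjusted p under 0.05, edgeR gave 3 lower and 1 higher (0.725% and 0.242% of member sites, 0.507% and 0.217% of all) and DESeq2 8 lower and 1 higher (1.93% and 0.242%, against 0.833% and 0.254% of all). The libraries of the genotypes did not overlap at 48 member sites with R397W lower (11.6%, background 12.6%) and at 19 with R397W higher (4.59%, background 6.43%). Both shares were near the background, and so give no difference particular to these genes. The number of calls depended on 1 library: without WT Foxp3 library 2 it was 37 member sites, all lower in R397W (8.94%, against 11.6% of all sites). These were exactly the 37 member sites at 0 in both R397W libraries.

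Among sites whose genotypes did not overlap, the cTreg-specific site with the largest difference was in Acoxl (chr2:127927734-127928134), which encodes a peroxisomal acyl-CoA oxidase-like protein. It had 139 and 155 in WT Foxp3, and 23.6 and 0 in R397W Foxp3. The IgG values were 0.858 and 57.2 for WT, and for R397W 106 and 68.5. R397W Foxp3 was thus low while IgG of the same genotype was not. The log2 difference was -4.90 with a standard error of 2.00 (limma, unadjusted p = 0.0470, adjusted p = 1). The Acoxl site was named for this difference, so its unadjusted p is not that of a site chosen beforehand. It was 1 of the 2 member sites under an unadjusted p of 0.05. The other was a common site of Gtf2i, a general transcription factor gene outside the naming rule, chosen after its values were seen.

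The eTreg-specific site past Nrp1 (chr8:128549726-128550126) had 130 and 62.6 in WT Foxp3 and 6.28 and 0 in R397W Foxp3, while IgG gave 49.7 and 0.544 for WT and 22.3 and 111 for R397W. The log2 difference was -5.08 with a standard error of 2.50, and limma gave an adjusted p of 1. WT was higher in both libraries, but the R397W IgG value of library 2 was close to the WT Foxp3 values. At the cTreg-specific site inside Nrp1 the WT values were 10.9 and 71.1 and the R397W values 33.7 and 0, which overlapped.

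The eTreg-specific site at the start of Mbnl1 (chr3:60472285-60472685) went the other way, with 0 and 0 in WT Foxp3 and 14.7 and 150 in R397W Foxp3. IgG had 15.7 and 0 in WT and 9.92 and 84.7 in R397W, so that library 2 was high with both antibodies in R397W cells. The log2 difference was 5.60 with a standard error of 3.52 and an adjusted p of 1 (limma). In the body of Inpp4b, a cTreg-specific site (chr8:81782834-81783234) had 53.9 and 44.3 in WT and 3.37 and 0 in R397W, with 16.3 and 88.0 in WT IgG.

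Of the common member sites, those of Tnfaip3 and Fyn differed most between the genotypes. The Tnfaip3 site (chr10:18983571-18983971, 17139 bp outside the gene) had 24.3 and 40.0 in WT Foxp3 and 0 in both R397W Foxp3 libraries, while IgG gave 0 in both WT libraries and 18.1 and 11.5 for R397W. The Fyn site (chr10:39488011-39488411) had 44.9 and 19.1 in WT and 0 in both R397W libraries, but 70.1 in WT IgG library 1. In limma neither passed, with log2 differences of -5.01 and -4.92, standard errors of 3.28 and 3.25, and adjusted p of 1. Sites at 0 in both R397W Foxp3 libraries were 37 of the 414 member sites (8.94%), against 725 of all 5521 sites (13.1%). For WT Foxp3 there were 2 among the members, and the share over all sites was not computed. The R397W Foxp3 libraries also had fewer reads at member sites (8831 and 16927) than the WT ones (24699 and 25188).

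Within Foxp1 the fitted difference was below 0 at 10 of 12 cTreg-specific, 2 of 2 eTreg-specific and 4 of 7 common sites. Over all sites of these classes the shares below 0 were 60.0%, 66.6% and 58.9%. The sites share the same libraries and are not independent. The strongest cTreg-specific site of Foxp1 (chr6:99388939-99389339) had 111 and 215 in WT and 96.0 and 248 in R397W Foxp3, so the genotypes overlapped. Both WT Foxp3 libraries were above the WT IgG values of 59.2 and 93.1 there. The cTreg-specific site at the internal promoter whose sequence is given above had 42.9 and 73.2 in WT Foxp3 and 21.9 and 0.709 in R397W Foxp3. With IgG it had 30.0 and 0 in WT and 36.7 and 0.652 in R397W, so R397W Foxp3 did not exceed its IgG. R397W Foxp3 was lower than WT Foxp3 in both libraries there, with a log2 difference of -3.19, but no Foxp1 site passed limma's adjusted test. The eTreg-specific site nearest the 3' end had 97.9 and 28.8 in WT and 31.4 and 9.37 in R397W, but WT IgG library 2 had 323.

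**Figure D4:**
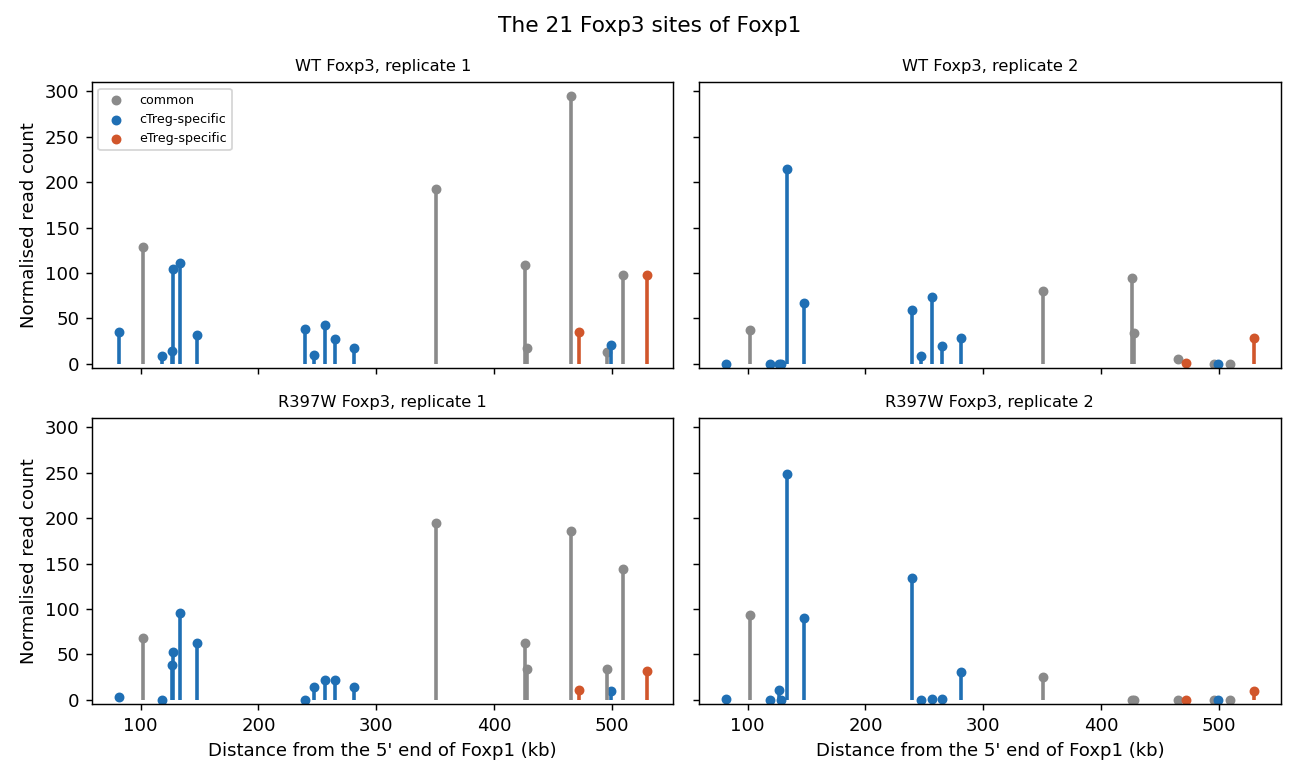
Normalised read count at the 21 Foxp3 sites of Foxp1 in each of the 4 Foxp3 libraries, by distance from the gene's 5' end in kb, coloured by class. The cTreg-specific site with 111 and 215 in WT has 96.0 and 248 in R397W, and more sites have no reads in replicate 2 than in replicate 1.

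At the other sequences shown above, the Pik3r5 promoter site had 64.0 and 129 with WT Foxp3 and 62.3 and 111 with R397W Foxp3, against 156 and 31.5 with WT IgG. The cTreg-specific site at Gm13982 had 62.3 and 47.9 with WT Foxp3 and 128 and 0 with R397W Foxp3, against 55.7 and 0 with WT IgG. The groups overlapped at both sites, and WT Foxp3 did not separate from IgG at either.

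Whether the loss or gain of signal differed between the genotypes once IgG was taken into account was tested as the difference of differences. No member site passed (limma, lowest adjusted p 0.841), where 0% of all sites did. At an unadjusted p under 0.05, 2 member sites were higher (background 0.272%) and 6 lower (1.38%). By edgeR and by DESeq2 0 passed, and without WT Foxp3 library 2 limma called 12, all lower in R397W (2.90%, against 3.28% of all sites). The median was -1.25 over member sites and -1.02 over all.

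Because both classes belong to the same genes, their balance can be read within each library, where scaling cancels. Summed over the 65 genes, eTreg-specific and cTreg-specific sites received 5026 and 6066 reads in WT Foxp3 library 1 and 4386 and 6341 in library 2. In R397W Foxp3 they received 1477 and 2732, and 2584 and 5352. As log2 ratios of eTreg-specific to cTreg-specific reads these were -0.27 and -0.53 in WT and -0.89 and -1.05 in R397W, so both R397W libraries lay below both WT libraries. The difference was -0.57 with a pooled SD of 0.15 (n = 2 per genotype), and an exact two-sided permutation test gave p = 0.333, the smallest that 2 against 2 libraries allow.

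The IgG libraries showed ratios in the same range. They were -0.56 and -1.15 in WT and -0.69 and -1.28 in R397W, which overlapped, with a difference of -0.13 and a pooled SD of 0.42 (exact permutation p = 0.667). The part of background reads in the Foxp3 ratios was not tested. At class-specific sites outside the member genes, the ratios were 0.35 and 0.86 in WT Foxp3 and -0.23 and 0.09 in R397W Foxp3, a difference of -0.67 with a pooled SD of 0.30, with exact permutation p = 0.333. IgG separated the genotypes there too, with ratios of 0.44 and 0.41 for WT against -0.10 and 0.17 for R397W, a difference of -0.40 with a pooled SD of 0.14 and the same p of the exact permutation test. The Foxp3 difference at member genes (-0.57) was thus no larger than elsewhere (-0.67), but the IgG difference was smaller at member genes (-0.13 against -0.40). The sets were not compared after taking IgG into account. The plot of ratios shows the 2 sets side by side.

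**Figure D5:**
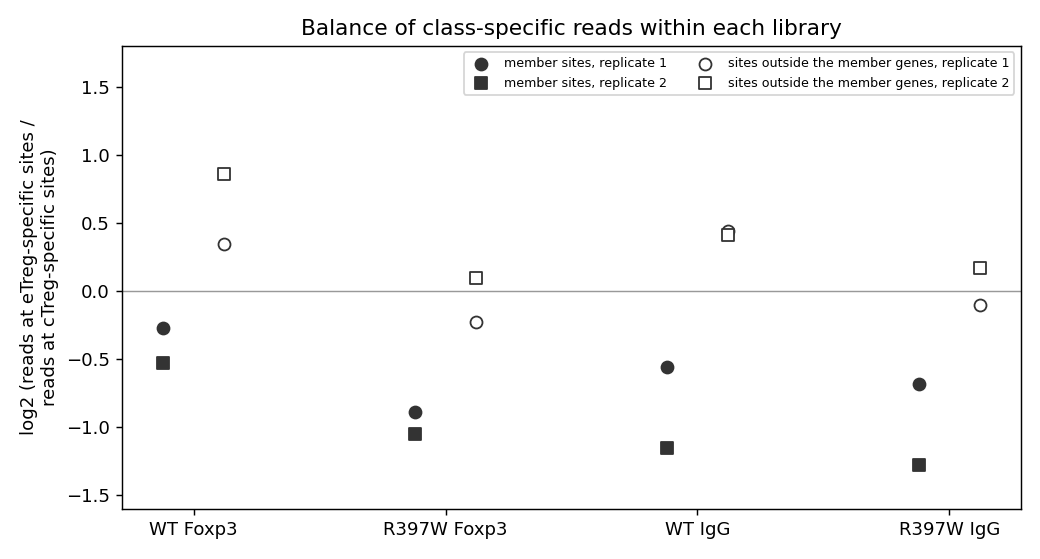
Reads at eTreg-specific sites over those at cTreg-specific sites, as a log2 ratio, in each of the 8 libraries; filled points are the member genes, open points the sites outside them, circles replicate 1 and squares replicate 2. In the Foxp3 libraries of the member genes, both R397W points (-0.89 and -1.05) lie below both WT points (-0.27 and -0.53), while the IgG points of the genotypes overlap.

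Gene by gene the balance was not uniform. The log2 ratio, with 1 read added to both sums, was lower in R397W than in WT in 38 of 65 genes and higher in 27, with a median difference of -0.73. The genotypes did not overlap in 15 genes with R397W lower and 5 with R397W higher. The share expected by chance was not computed, and a library without class-specific reads in a gene has a ratio of 0 here. Among the 37 genes with at least 20 class-specific reads in every Foxp3 library, 22 were lower and 15 higher. In that set the genotypes did not overlap in 7 genes with R397W lower and 3 with R397W higher.

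Of these 37 genes, those with most of their WT reads at eTreg-specific sites were Hivep2, Itpkb, Ets1 and Hdac4. Each of them had 0 cTreg-specific reads in WT Foxp3 library 2. Hivep2 had 178 and 340 eTreg-specific reads against 17 and 0 cTreg-specific reads in WT Foxp3, and 42 and 79 against 4 and 0 in R397W Foxp3, so its balance was on the same side in both genotypes. Ets1 had 230 and 216 against 53 and 0 in WT, and 55 and 18 against 27 and 88 in R397W. In the IgG libraries Hivep2 had 167, 0, 90 and 49 eTreg-specific against 3, 0, 0 and 8 cTreg-specific reads, and Ets1 190, 0, 73 and 14 against 0, 0, 5 and 0, WT first. Among the Foxp3 libraries of Ets1, the second R397W library alone had more reads at the cTreg-specific site, and the genotypes did not overlap.

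At the other end were Foxn3, a forkhead repressor gene, Susd1, Mbnl1 and Il6st. Each of them had 0 eTreg-specific reads in WT Foxp3 library 2. Foxn3 had 269 and 365 cTreg-specific reads against 17 and 0 eTreg-specific ones in WT, and 96 and 156 against 11 and 0 in R397W. Mbnl1 had 84 and 60 against 0 and 0 in WT, and 68 and 55 against 7 and 192 in R397W. Foxn3 therefore kept its side in all 4 Foxp3 libraries, whereas Mbnl1 changed side in the second R397W library. The IgG libraries ran the same way. Foxn3 had more cTreg-specific reads in all 4 of them, and Mbnl1 in all but R397W IgG library 2, which had 89 eTreg-specific against 64 cTreg-specific reads. The genes at both ends were named for extreme ratios in WT Foxp3. Less extreme ratios in R397W can follow from that choice, and a shift between the genotypes was not tested for them.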

How the data were processed

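Foxp3 and IgG CUT&Tag libraries of WT and R397W Treg cells (2 per group, grouped by title) were used. The authors deposited a normalised signal per library at sites in 3 files, 1 per class; the submitters' processing notes list mm10 and dm6 as builds and, as tools, DiffBind 3.12.0 and Bowtie2 2.5.2, giving no roles, and no label names the site caller. In each file and library all values above 0 (100%) equalled a whole number of reads times a constant (tolerance 0.01), so reads were recovered. The files were scaled separately, so that factor ratios of library pairs differed between files by up to 2.09-fold. Reads at all listed sites ranged from 111274 to 394196 per library.

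Sites were tested two-sided with limma 3.58.1 (R 4.3.3) and a trended empirical Bayes prior on log2(deposited value + 1), fitted on all 5521 sites, with Benjamini-Hochberg adjustment over all of them and a threshold of 0.05. R397W against WT used the 4 Foxp3 libraries, and the other comparisons all 8. On the recovered reads, edgeR 4.0.16 (quasi-likelihood) and DESeq2 1.42.0 used the deposited factors. Other alternatives were pseudocounts of 0.5 and 5, leaving out the lowest 25% of sites, equal totals, TMM scaling, a replicate block, no trend, leaving out each library, and shorter gene distances. The script was tested on simulated data.

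Genes came from the RefSeq table of GRCm38.p6, which lists no strand; 50 of the 65 members matched a stranded promoter entry. The members and the 17 gene lists were chosen with earlier results of these data known. Genes and sites named were the 12 genes with most class-specific sites, listed genes, the 6 shortest and 3 longest distances between classes, the 2 sites per class with the largest non-overlapping difference, the 2 strongest in WT Foxp3, and the 4 highest and 4 lowest read ratios.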

Additional observations from a re-analysis of the deposited data

How the results depend on the processing

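Leaving out each library in turn gave 0 to 37 member sites past the threshold for R397W against WT Foxp3, 0 to 13 for WT Foxp3 against WT IgG, 0 for R397W Foxp3 against R397W IgG, and 0 to 12 for the difference of differences. The highest counts, 37, 13 and 12, were all without WT Foxp3 library 2; for WT Foxp3 against WT IgG it was 4 without WT Foxp3 library 1 and 1 without WT IgG library 1. A lone library was then assumed to vary like the other groups. All other settings run (pseudocounts of 0.5 and 5, the filter, equal totals, TMM, no trend, edgeR and DESeq2) gave 0 calls among members in each comparison. With the replicate number as a block, the count was also 0 in each comparison, with 17 member sites lower and 1 higher at an unadjusted p under 0.05 for R397W against WT (4.11% and 0.242%, against 2.25% and 0.290% of all sites); deviations of same-numbered libraries correlated at -0.04 to 0.15 over member sites, and 2 libraries per group do not show that the numbers pair them.

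The log2 ratio of eTreg-specific to cTreg-specific reads, R397W minus WT, was -0.74 in Foxp3 libraries without the 2 strongest sites of each class, and 0.64 in IgG libraries with each gene weighing the same. With sites taken only within 5 kb of a gene body the set had 43 genes and 274 sites, all among those described. The causes were not tested. Comparisons of single sites are limited by sites without reads: only 29.5% of member sites had reads in all 4 Foxp3 libraries.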
